A study of Mus musculus with 4 samples.

Results

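The Serpin genes encode the serpins, a superfamily of protease inhibitors and related proteins. The members described here were all protein-coding RefSeq genes on mouse autosomes (GRCm38.p6, the mm10 build) whose symbol starts with Serpin. Of 69 genes with such a symbol, 6 were not protein-coding and 1, Serpina7, lies on the X chromosome, which left 62 members. Each was measured in up to 3 regions: the gene body, trimmed by 2000 bp at both ends, and the 2 gene ends, each a stretch that begins 1000 bp outside the gene and runs 500 bp into it. A body needed at least 10 CpGs and an end at least 5 CpGs with a value in every sample. These minimums left 54 gene bodies of 62 and 87 gene ends of 124, and 4 members had no region that passed. The choice of members used the presence of values and not their levels.

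DNA methylation was measured by whole-genome bisulfite sequencing with post-bisulfite adaptor tagging (PBAT) in male germ cells from testes of 21-day-old mice. The 2 control samples came from Np95fl/fl mice and the 2 knockout samples from Np95fl/fl:Stra8-Cre mice, so both groups carried the floxed Np95 allele (Uhrf1) and differed in the Cre transgene. NP95 binds hemimethylated CpGs behind the replication fork and recruits DNMT1, which restores the methyl mark. The Stra8 promoter drives Cre in male germ cells, and the labels do not give the stage of deletion. Germ cells were enriched by dissecting and filtering tubules, with no cell sort named. The labels do not say whether the replicates were separate animals, so p-values speak for these samples only. A level is the mean percentage of methylated reads over the cytosines of a region that had a value in all 4 samples. In a bulk sample, fewer methylated cells and less methylation per cell cannot be told apart.

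The table listed 37230584 cytosines, of which 28999710 to 29774194 had a value in a sample and 22421484 had one in all 4 samples. The mean over shared autosomal cytosines was 69.1 and 72.9% in controls against 38.1 and 38.4% in knockouts. The read depth behind each value is unknown, so no interval for counting error is given. Control replicate 2 was above control replicate 1 in 53 of 54 Serpin bodies and in 75 of 87 ends. Maternally methylated imprinted regions are normally unmethylated in male germ cells. For 6 such genes the start side was measured, set from the annotated gene end and not matched to the imprinted region. Of these, 5 were at 1.10 to 6.14% in the controls (Grb10, Nnat, Plagl1, Peg3 and Mest). The other, Snrpn, measured over 5 CpGs, was at 65.3%. In the knockouts the 5 low start sides were at 1.12 to 12.7%. A start side outside the imprinted region does not tell germ cells from other cells. Of 7 start sides of germ cell genes, 4 (Mael, Sycp1, Sycp3 and Dazl) were called higher in the knockouts, from 4.09 to 6.41% in the controls to 14.7 to 17.5%. Over all genes 38 of 14555 start sides were called higher and 28.3% lower. Of 5 measured start sides of genes that mark other cells, Ptprc (blood) and Hsd3b1 (Leydig cells) were called lower. The other 3 were not called, but both knockouts lay outside the controls: means went from 7.30 to 3.64% at Insl3 (Leydig cells), from 7.77 to 3.91% at Dhh (Sertoli cells) and from 11.3 to 18.7% at Cd3e (T cells). The part of a changed mix of cells in the Serpin values was not tested.

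A typical serpin presents an exposed loop as bait, is cut by its target protease, and traps that enzyme by springing into a new fold. Clade A members are mostly secreted by the liver and act in plasma, such as alpha-1-antitrypsin. Clade B members lack a classical secretion signal and mostly act inside cells, where they restrain granzymes, cathepsins and neutrophil proteases. The remaining clades hold the inhibitors of clotting, fibrinolysis and complement, the neuronal serpins, and Serpinh1, a collagen chaperone that inhibits no protease. In mice, clades A and B have expanded by local duplication. Joining neighbours at gaps of up to 500 kb gave 3 clusters with 51 members: 12 clade B genes at chr1:106861175-107608978, 23 clade A genes at chr12:103616675-104414334, and 16 clade B genes at chr13:32842092-34002794. The other 11 members stood alone. Near-identical neighbours share sequence, and the values do not show how reads that match several copies were placed, so single values of the Serpina1, Serpina3, Serpinb9 and Serpinb6 copies are uncertain.

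Most Serpin promoters hold few CpGs, and their methylation in the controls did not follow CpG number alone. The 8 sequences below are the 250 bases before annotated starts (RefSeq, GRCm38.p6), written 5′ to 3′ on the gene's strand with every CpG in capitals. They were chosen after the values were seen, to show a CpG-rich unmethylated promoter, CpG-poor unmethylated and weakly methylated ones, partly methylated ones, and methylated ones with a like number of CpGs.
Serpini1: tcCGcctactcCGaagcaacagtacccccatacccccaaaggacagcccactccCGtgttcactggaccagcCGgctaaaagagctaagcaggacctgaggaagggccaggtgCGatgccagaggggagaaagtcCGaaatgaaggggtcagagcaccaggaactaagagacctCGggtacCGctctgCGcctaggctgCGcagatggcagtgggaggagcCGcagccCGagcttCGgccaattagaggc
Serpinb9: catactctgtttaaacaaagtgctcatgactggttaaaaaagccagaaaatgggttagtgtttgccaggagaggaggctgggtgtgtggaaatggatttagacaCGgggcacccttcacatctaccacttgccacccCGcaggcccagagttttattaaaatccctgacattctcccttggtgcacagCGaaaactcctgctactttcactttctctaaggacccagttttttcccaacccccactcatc
Serpinb5: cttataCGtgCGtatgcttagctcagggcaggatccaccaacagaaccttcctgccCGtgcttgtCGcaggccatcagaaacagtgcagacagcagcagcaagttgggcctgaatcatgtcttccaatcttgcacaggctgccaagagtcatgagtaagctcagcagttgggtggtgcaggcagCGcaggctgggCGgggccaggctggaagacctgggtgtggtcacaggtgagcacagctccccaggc
Serpinb6c: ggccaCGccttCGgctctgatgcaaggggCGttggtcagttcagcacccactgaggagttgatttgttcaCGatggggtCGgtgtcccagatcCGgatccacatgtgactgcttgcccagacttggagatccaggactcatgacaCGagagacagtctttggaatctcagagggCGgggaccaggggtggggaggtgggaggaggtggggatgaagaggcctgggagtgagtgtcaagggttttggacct
Serpina12: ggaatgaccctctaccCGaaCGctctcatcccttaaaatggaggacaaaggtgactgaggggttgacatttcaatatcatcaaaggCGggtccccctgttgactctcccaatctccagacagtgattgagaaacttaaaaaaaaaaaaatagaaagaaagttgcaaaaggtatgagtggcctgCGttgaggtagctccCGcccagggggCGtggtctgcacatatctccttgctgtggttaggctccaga
Serpina3a: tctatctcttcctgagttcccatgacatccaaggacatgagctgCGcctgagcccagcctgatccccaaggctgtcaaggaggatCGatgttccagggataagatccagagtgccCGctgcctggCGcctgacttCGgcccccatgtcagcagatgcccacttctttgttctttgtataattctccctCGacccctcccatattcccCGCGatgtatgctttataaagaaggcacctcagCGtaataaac
Serpina1a: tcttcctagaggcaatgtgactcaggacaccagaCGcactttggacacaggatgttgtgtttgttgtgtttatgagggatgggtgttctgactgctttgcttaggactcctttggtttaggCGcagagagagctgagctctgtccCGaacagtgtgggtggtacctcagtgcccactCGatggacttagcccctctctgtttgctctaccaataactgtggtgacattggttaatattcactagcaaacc
Serpina5: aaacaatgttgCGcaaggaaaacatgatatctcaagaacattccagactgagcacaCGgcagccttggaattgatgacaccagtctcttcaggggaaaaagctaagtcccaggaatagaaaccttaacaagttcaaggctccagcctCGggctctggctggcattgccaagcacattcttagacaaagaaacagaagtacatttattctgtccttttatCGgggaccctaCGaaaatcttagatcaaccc
Their positions are Serpini1 at chr3:75557243-75557492, plus strand, Serpinb9 at chr13:33004291-33004540, plus strand, Serpinb5 at chr1:106860925-106861174, plus strand, Serpinb6c at chr13:33905192-33905441, minus strand, Serpina12 at chr12:104044444-104044693, minus strand, Serpina3a at chr12:104112474-104112723, plus strand, Serpina1a at chr12:103863620-103863869, minus strand, and Serpina5 at chr12:104100863-104101112, plus strand. The levels that follow are over 300-bp windows that run from 250 bp before the start to 50 bp after it.

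Serpini1, which encodes neuroserpin, had 15 CpGs in its window and levels of 0.968 and 2.30% in controls against 1.37 and 1.47% in knockouts. Serpinb9, the inhibitor of granzyme B, had only 5 CpGs and was also unmethylated, at 1.43 and 1.19% against 0.952 and 0.801%. The windows of Serpini1 and Serpinb9 were at 2.30% or below in every sample although they differ in CpG number. The Serpinb9 window belongs to an inner start, 7480 bp inside the annotated gene. At the outer start side of Serpinb9 only 1 CpG had values, with means of 93.75% in controls and 36.6% in knockouts. Serpinb5, which encodes maspin, had 7 CpGs and levels of 12.3 and 10.03% in controls against 15.1 and 14.0% in knockouts. Serpinb6c, an intracellular clade B member, had 10 CpGs and levels of 11.4 and 11.5% against 21.1 and 13.5%. In the windows of Serpinb5 and Serpinb6c both knockouts were above both controls, over 14 cytosines at Serpinb5 and 16 at Serpinb6c.

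Serpina12, which encodes the adipokine vaspin, had as many CpGs as Serpinb5 (7) but stood at 31.1 and 32.7% in controls against 23.3 and 22.6% in knockouts. Serpina3a, a member of the antichymotrypsin-like group, had 11 CpGs and levels of 50.2 and 36.3% in controls against 22.3 and 12.99% in knockouts. Serpina1a, a gene for alpha-1-antitrypsin, had 4 CpGs and was methylated, at 83.8 and 93.4% in controls against 40.5 and 61.2% in knockouts. Serpina5 encodes the protein C inhibitor, which is made in the male reproductive tract. Its 6 CpGs were at 89.3 and 91.7% in controls against 37.8 and 38.4% in knockouts. Each of these 4 clade A windows was lower in both knockouts than in both controls.

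RefSeq gave 61 windows for 53 of the 62 members, with a median of 3 CpGs against 7 over all 31396 autosomal windows. Windows of 15 or more CpGs numbered 4 among the Serpin genes (Serpine2, Serpini1, Serpinh1 and the outer start of Serpinb6a), while 35.2% of all windows were that dense. In 39 windows of 36 members at least 3 cytosines had values in every sample. Of these, 10 were under 20% in the controls, 6 were between 20 and 80%, and 23 were at 80% or more. The 23 methylated windows averaged 86.3 and 90.8% in controls against 43.7 and 45.3% in knockouts. In all 23 both knockouts were below both controls, as in 15905 of 15905 gene ends at 80% or more in the controls. That count therefore does not set the Serpin windows apart. The 10 low windows averaged 3.87 and 4.26% in controls against 5.47 and 4.59% in knockouts. Among them, 3 (Serpinb5, Serpinb6b and Serpinb6c) had both knockouts above both controls, 2 had both below, and 5 overlapped. This split was not counted over all autosomal windows. All autosomal windows under 20% in the controls had medians of 1.10% in controls and 1.07% in knockouts. Those of 3 to 10 CpGs had medians of 3.41 and 3.58%, and those of 11 or more CpGs 1.02 and 0.998%. These are medians over windows of each CpG range, while the Serpin values are means over both ranges, so they are not directly comparable.

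Within a shared range of CpG number, the clades held different levels. Among windows of 3 to 10 CpGs, 0 of 14 clade A windows and 6 of 12 clade B windows were under 20% in the controls. The 6 belonged to Serpinb5, Serpinb6c, Serpinb8 and inner starts of Serpinb6a, Serpinb6b and Serpinb9. The start of Serpinb6b lies 8450 bp inside the annotated gene, whose outer start side was at 75.3% in controls over 4 CpGs. The clade A median was 89.9% in controls and 45.0% in knockouts, and the clade B median was 36.4% and 26.2%. Over all autosomal windows of 3 to 10 CpGs, 32.3% were under 20% in the controls, and over those of 3 to 5 CpGs, 15.8%. The Serpin windows lie toward the CpG-poor side of the range, with a median of 4 CpGs in clade A and 5 in clade B. The clades were set side by side after the values were seen, the windows of Serpina11 overlap each other, and neighbouring members share ancestry, so these counts are a description with no test. The low windows of Serpinb8 and Serpinb6b rested on 6 and 3 cytosines, and those of Serpinb8 all lay after the start.

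The letters GGGCGG on either strand, the core of a GC box, were in 7 of the 10 low windows and in 0 of the 23 methylated windows. Over all 31396 windows 36.0% held them, and over the 61 Serpin windows 8 did. These letters contain a CpG, so the count is not separate from CpG number. TATAAA on either strand was in 1 of the 10 low windows, 3 of the 23 methylated windows and 16 of the 61 Serpin windows, against 13.6% of all windows.

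**Figure D1:**
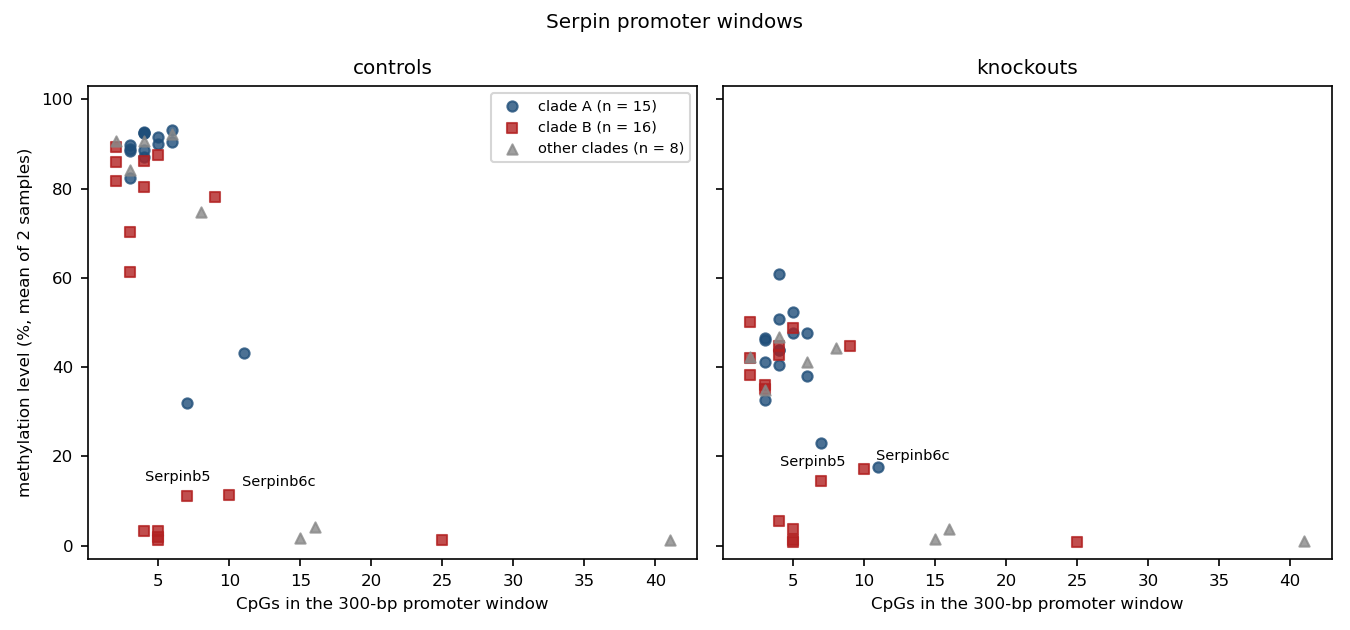
Methylation level (%, mean of 2 samples) of the 39 Serpin promoter windows with at least 3 measured cytosines, against the number of CpGs in the 300-bp window, for controls (left) and knockouts (right); colours and shapes mark clade A (15 windows), clade B (16) and the other clades (8). In the controls the clade A windows sit between 31.9 and 93.2%, 7 clade B windows sit under 20%, and the windows of 15 or more CpGs stay at the bottom of both panels.

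All 54 measured Serpin gene bodies were less methylated in the knockouts. Bodies had a median of 88.1% in controls and 44.6% in knockouts, and the median difference was -40.96 percentage points. A region was called where limma's Benjamini-Hochberg adjusted p was under 0.05 over all regions of its kind and the difference was at least 10 points. By that rule 54 of 54 Serpin bodies were called lower, with differences of up to -48.6 points and a largest limma adjusted p of 1.78e-10. For 98.9% of all bodies limma took the variance wholly from bodies of a like level. Such a p-value therefore does not measure the spread within the body itself. No Serpin body was called higher. The background was 96.9% of 15644 autosomal protein-coding gene bodies called lower and 0.0128% called higher, so the call itself does not set the Serpin bodies apart. In 54 of 54 Serpin bodies both knockouts were below both controls, against 99% of all bodies. With each body's own spread in place of the shared variance, 53 of 54 were called lower, against 96.1% of all bodies. The largest adjusted p among those 53 was then 0.049 (t-test of the linear fit, Benjamini-Hochberg adjusted).

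The share of control methylation that a region retained, the knockout mean over the control mean, had a median of 52.6% over the 54 bodies and was lowest at Serpina3i, at 44.4%. Over all bodies its median was 55.6%. Among bodies at 80% or more in the controls the medians were 52.2% for 41 Serpin bodies and 55.9% for 10732 bodies in all. Serpin bodies held a median of 5.59 CpGs per kb, and all bodies 10.4. Control and knockout means were correlated across the 54 bodies (Pearson's r = 0.90, across genes, which share libraries and are not independent replicates), as they were across all 15644 bodies (r = 0.95).

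**Figure D2:**
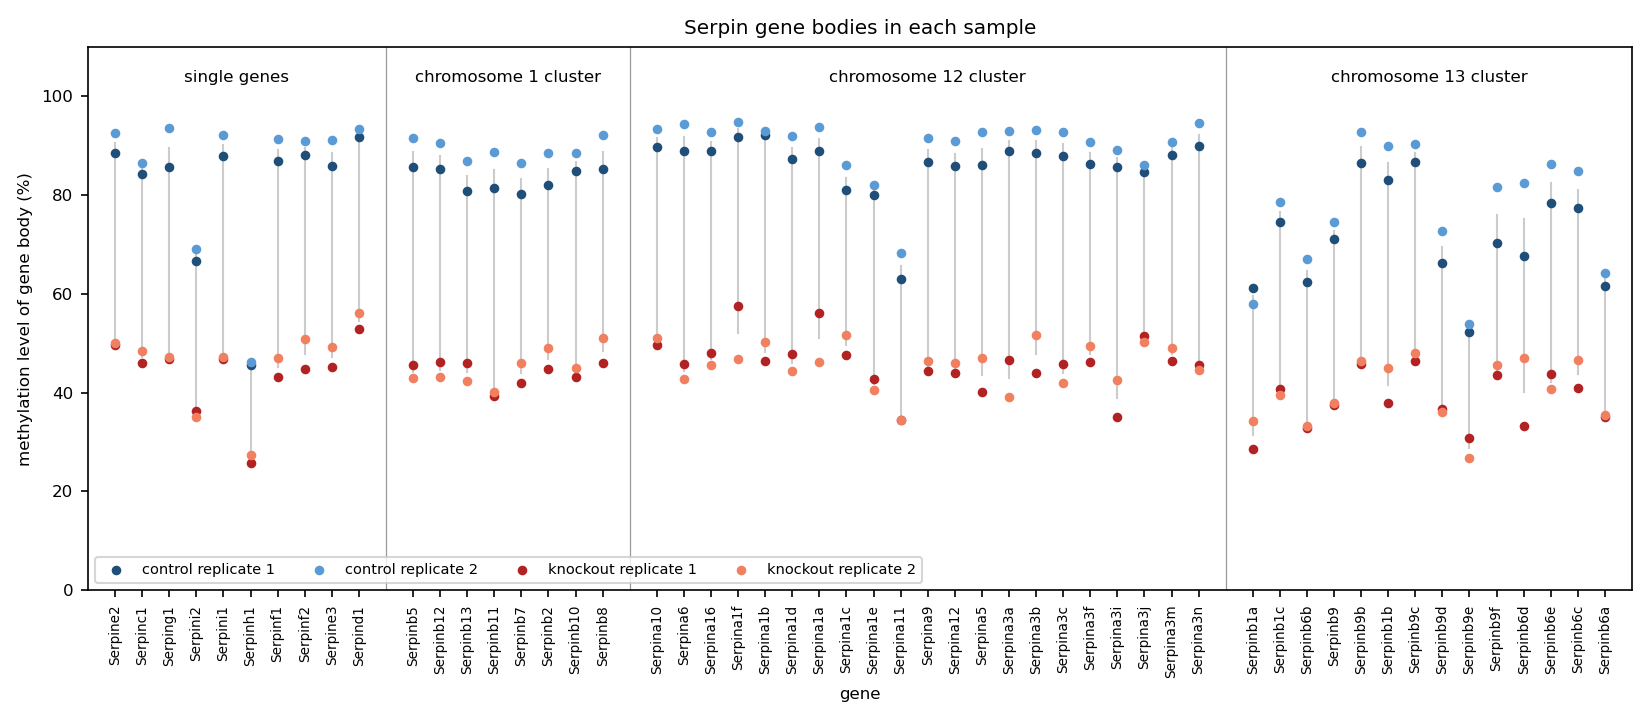
Methylation level (%) of 53 of the 54 measured Serpin gene bodies in the 4 samples; each column is a gene, points are single samples, and the grey line joins the control mean to the knockout mean, with genes grouped as single or by cluster. Every knockout point lies under every control point of its gene, the gap is small at Serpinh1, and 9 of the 14 bodies of the chromosome 13 cluster have a control mean under 80%.

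Among the single genes, the inhibitors of clotting and complement had highly methylated bodies. Serpinc1, which encodes antithrombin, was at 84.3 and 86.6% in controls against 46.1 and 48.4% in knockouts. Serpind1, which encodes heparin cofactor II, was at 91.7 and 93.3% against 52.9 and 56.2%, and it retained 59.0%. Serping1, the C1 inhibitor of complement, was at 85.6 and 93.6% against 46.8 and 47.3%. Each of these genes had knockouts far below controls, and the gap between groups was larger than the gap within them.

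The fibrinolysis inhibitor gene Serpinf2 and its relative Serpine2 also had highly methylated bodies. Serpinf2, which encodes the plasmin inhibitor alpha-2-antiplasmin, was at 88.2 and 91.1% in controls against 44.8 and 50.8% in knockouts. Serpine2, which encodes protease nexin-1, was at 88.6 and 92.6% against 49.7 and 50.01%. The collagen chaperone gene Serpinh1 was lower, with 45.6 and 46.2% against 25.8 and 27.4%, a difference of -19.3 points. In the controls 44.9% of the measured cytosines of the Serpinh1 body were under 20%. Those at 80% or more in the controls averaged 88.8%, and the same cytosines averaged 44.0% in the knockouts.

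Serpinf1, which encodes pigment epithelium-derived factor, was at 86.9 and 91.5% in controls against 43.2 and 47.0% in knockouts. Of the clade I genes, Serpini1 was at 88.0 and 92.2% against 46.8 and 47.3%, and Serpini2 at 66.6 and 69.1% against 36.4 and 35.0%. Serpini2 lost fewer points but retained 52.6%, close to the 52.2% of Serpini1. Serpine3 was at 85.9 and 91.2% against 45.2 and 49.2%.

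The chromosome 12 cluster was the most methylated of the clusters, and it held the 5 bodies with the largest losses. Its 21 measured bodies had a median of 89.6% in controls and 46.1% in knockouts. Serpina3i fell by 48.6 points, from 85.8 and 89.1% to 35.1 and 42.6%, over 15 CpGs. Serpina3a fell by 48.1 points, Serpina6 by 47.4, Serpina3n by 47.1 and Serpina3c by 46.5 points. Serpina6 encodes corticosteroid-binding globulin, a serpin that carries hormone and inhibits no protease, and was at 88.9 and 94.5% against 45.9 and 42.7%. Serpina3n, an inhibitor of granzyme B and leukocyte elastase, was at 89.96 and 94.5% against 45.7 and 44.7%.

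Copies of the alpha-1-antitrypsin gene varied within the cluster. Serpina1a was at 88.9 and 93.7% in controls against 56.2 and 46.1% in knockouts. Serpina1c was lower in the controls, at 81.0 and 86.0%, and ended at 47.7 and 51.8%, a difference of -33.8 points. Serpina1c retained 59.6%, as did Serpina3j, while Serpina3i retained 44.4%. Serpina5 was at 86.0 and 92.8% against 40.2 and 47.1%. Serpina10, which encodes the protein Z-dependent protease inhibitor, was at 89.7 and 93.5% against 49.6 and 51.0%, and Serpina12 at 85.9 and 91.0% against 44.0 and 46.1%. The lowest body of the cluster was Serpina11, at 63.0 and 68.2% against 34.5 and 34.4%, with 15.6% of its cytosines under 20% in the controls.

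In the chromosome 1 cluster, 8 of 12 bodies were measured, with a median of 86.0% in controls and 44.2% in knockouts. Serpinb2, which encodes plasminogen activator inhibitor 2, was at 82.0 and 88.6% against 44.8 and 49%. The body of Serpinb5 was at 85.8 and 91.5% against 45.5 and 43.0%, so the body lost methylation beside a promoter window that stayed low. Serpinb8 showed the same arrangement, with 85.3 and 92.2% against 45.9 and 51.1% in the body and 3.40 and 2.97% against 4.86 and 2.49% in its promoter window. The 4 Serpinb3 genes, homologues of the squamous cell carcinoma antigens, had fewer than 10 CpGs with a value in all 4 samples, and so no body value here: 4, 8, 9 and 2 at Serpinb3a, Serpinb3b, Serpinb3c and Serpinb3d. In this cluster 49% of listed body cytosines were measured in all 4 samples, against 76.6% on chromosome 12 (medians over bodies).

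The chromosome 13 cluster was the least methylated. Its 14 measured bodies had a median of 75.6% in controls and 40.1% in knockouts, and 9 of them were under 80% in the controls. They retained a median of 52.6%, against 51.5% on chromosome 12 and 51.7% on chromosome 1. Bodies with a low mean were of different kinds. Serpinb9 was at 71.1 and 74.5% in controls against 37.4 and 37.9% in knockouts, Serpinb6b at 62.4 and 67.0% against 32.8 and 33.2%, and Serpinb6a, an inhibitor of cathepsin G, at 61.7 and 64.2% against 35.0 and 35.5%. These 3 bodies contain annotated starts, and 17.2, 24.5 and 24.3% of their cytosines were under 20% in the controls. More than 2000 bp from any annotated start, the control mean was 89.5% at Serpinb9 and 87.0% at Serpinb6b, and 74.0% at Serpinb6a.

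The other kind had intermediate values at many cytosines. Serpinb9e was at 52.3 and 54.0% in controls against 30.8 and 26.8% in knockouts, and 71.0% of its cytosines stood between 20 and 80% in the controls. That share was 60% at Serpinb9f, 52.2% at Serpinb9d and 47.8% at Serpinb6d, and over all 54 Serpin bodies it had a median of 16.8%. These bodies rest on 11 to 22 CpGs each. Serpinb1a, the neutrophil elastase inhibitor gene, was at 61.2 and 58.0% against 28.6 and 34.3%, with 25.0% of its cytosines under 20% in the controls and 33.3% between 20 and 80%. The smallest losses in this cluster were at Serpinb9e (-24.3 points), Serpinb6a (-27.7) and Serpinb1a (-28.1). Serpinb1a was the only measured body in which control replicate 1 was above control replicate 2. Leaving out cytosines within 2000 bp of a start, 7 of the 14 bodies on chromosome 13 were under 80%, against 1 of 21 on chromosome 12 and 0 of 8 on chromosome 1. Among those 7, Serpinb1a, Serpinb9d, Serpinb9e, Serpinb9f and Serpinb6d had no such cytosines, so leaving them out could not change these values. For Serpinb1a no start position was known. Only Serpinb1c (77.7%) and Serpinb6a had cytosines removed.

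The low level reached beyond the genes. Over 10-kb windows with at least 10 CpGs, the chromosome 13 cluster had a median of 65.9 and 70.4% in controls against 39.2 and 39.1% in knockouts (110 windows). The 500 kb on either side had 85.2 and 90.4% against 44.2 and 45.4% (100 windows). Cluster minus flanks was -19.7 points over controls and -5.63 points over knockouts, a change of 14.0 points (exact two-sided permutation over 4 samples, p = 0.33, the smallest that 2 against 2 samples allow). Windows between Serpin genes had a control median of 64.5%, and 57.3% of the windows in the cluster were under 70% in the controls, against 23.0% of autosomal windows. On chromosome 1 the contrast of cluster minus flanks was -7.20 points in controls and -3.28 in knockouts, and on chromosome 12 it was 0.47 and 1.89 points (exact permutation, p = 0.33 for both changes). The retained share of these medians was 57.5% inside the chromosome 13 cluster and 51.0% in its flanks. It was 51.1 and 50.7% on chromosome 1, and 52.4 and 50.5% on chromosome 12. These windows were examined after the body values had been seen.

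**Figure D3:**
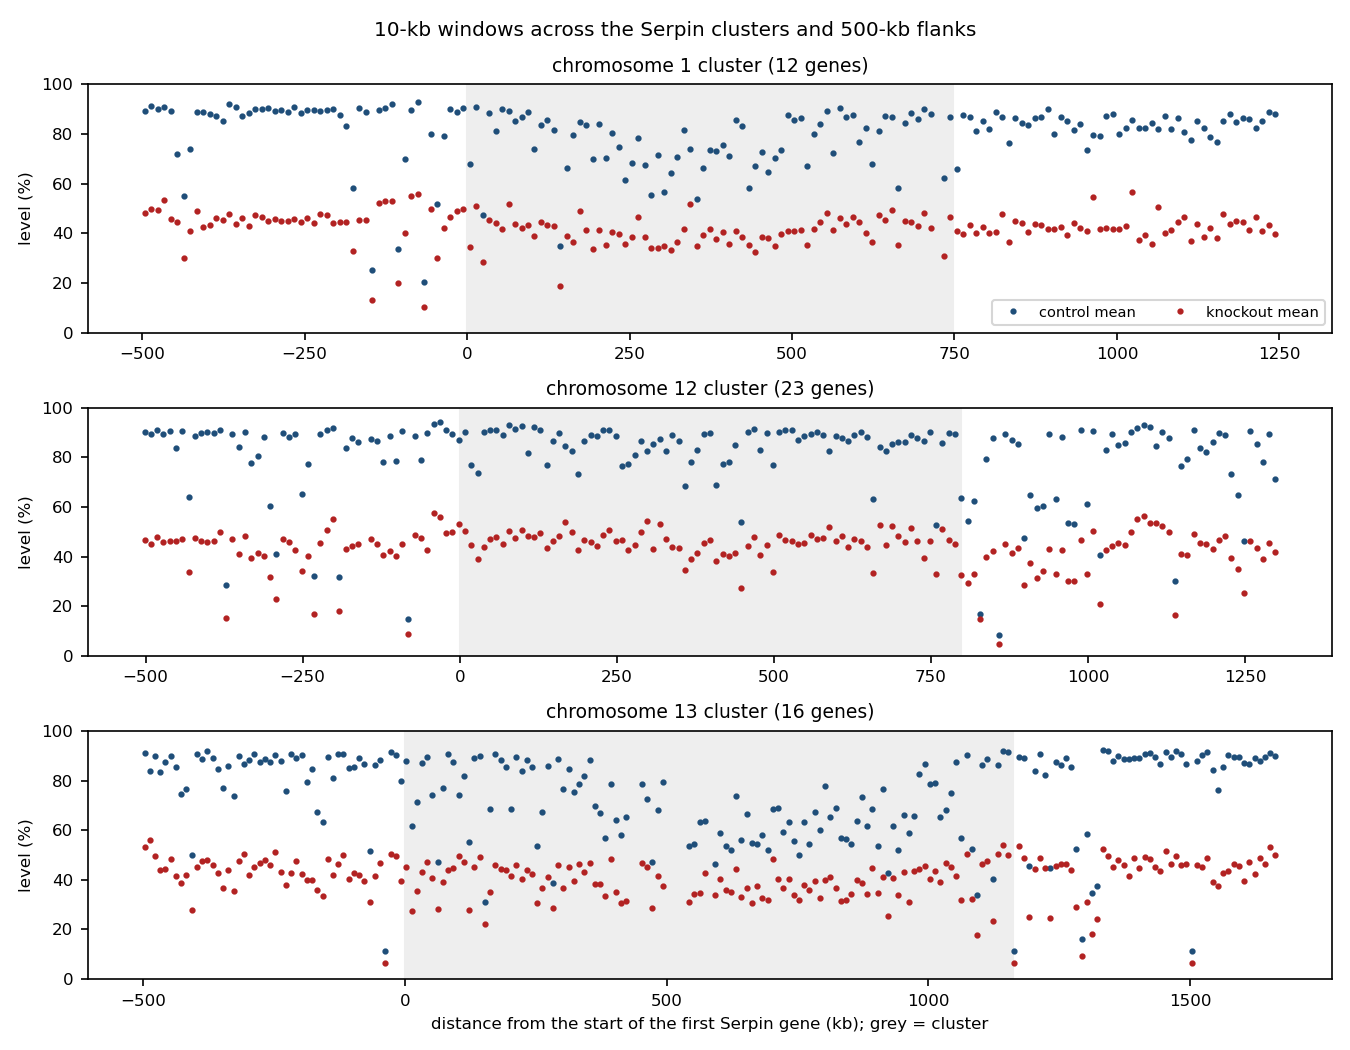
Mean methylation level (%) of 10-kb windows in controls (blue) and knockouts (red) across the Serpin clusters on chromosomes 1, 12 and 13 (grey) and the 500 kb on either side, against distance from the start of the first Serpin gene (kb). In the controls many windows inside the chromosome 13 cluster lie between 50 and 70% while most flanking windows lie above 80%; the knockout windows differ less, with medians of 39.7% inside and 45.1% in the flanks.

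The lowest windows of the clade B clusters touched Serpin genes. The window at chr13:34000001-34010000, which holds the outer start of Serpinb6a and the start of its neighbour Ripk1, was at 11.3 and 11.4% in controls against 6.86 and 6.04% in knockouts. The window with Serpinb9 at chr13:32990001-33000000 was at 31.0 and 31.5% against 21.6 and 22.4%. In the chromosome 1 cluster the window with Serpinb13 at chr1:107000001-107010000 was lowest, at 33.6 and 36.0% against 19.2 and 18.3%, followed by that with Serpinb5.

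Of the 87 measured gene ends, 79 were called lower, 0 higher and 8 neither (limma with Benjamini-Hochberg adjustment over 34728 ends). The background over all ends was 57.5% for lower calls and 0.153% for higher calls. Both knockouts were below both controls in 83 of 87 Serpin ends, against 75.9% of ends in general. With each end's own spread in place of the shared variance, 35 Serpin ends and 24.4% of all ends were called lower. Strand was known for 53 members, which placed 38 ends on the start side and 33 on the stop side, with 16 unplaced. On the start side 31 of 38 Serpin ends were called lower, where 28.3% of all start sides were. Control levels differed likewise: the median was 86.9% at Serpin start sides and 3.50% at all start sides. On the stop side 33 of 33 were called lower, against 90.2% of all stop sides. The 67 Serpin ends at 80% or more in the controls were all called lower, as were 99.9% of all such ends, and their median went from 89.7 to 46.6%.

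Of the 8 ends that were not called, 5 were under 20% in the controls. The start side of Serpine2 was at 1.51 and 1.80% in controls against 1.48 and 1.82% in knockouts over 106 CpGs. That of Serpini1 was at 1.30% against 1.03% (means of 2), that of Serpinb6a at 1.25% against 0.747%, and that of Serpinh1 at 6.07% against 4.31%. At Serpinb8 the start side was at 3.12 and 4.34% against 6.62 and 1.68%, the only end whose knockout mean was above the control mean, by 0.42 points with overlapping groups (limma adjusted p = 0.96), so 0 ends reached an unadjusted p under 0.05 in that direction. These 5 ends were under 20% in the controls, a range where lower calls made up 0.171% and higher calls 0.37% of all such ends.

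Start sides of Serpinb5 and Serpinb6c were also not called. The start side of Serpinb5 was at 18.4 and 21.6% against 18.4 and 17.8%, and that of Serpinb6c at 23.7 and 26.2% against 27.3 and 15.4%. Neither passed this test, which shares variance between ends (limma adjusted p = 0.58 and 0.33). The high-coordinate end of Serping1, at 35.3 and 31.1% in the controls, did pass, with 14.95 and 15.6% in the knockouts, but it lost the call when ends reached only 500 bp outside the gene (-6.15 points).

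**Figure D4:**
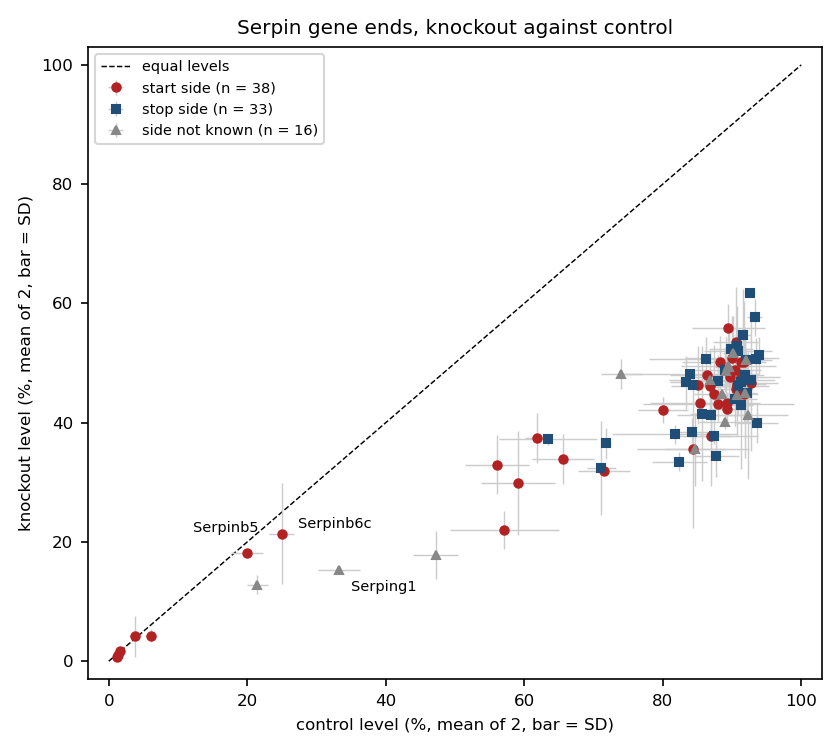
Knockout level against control level (%, means of 2 samples, bars are SD) of the 87 measured Serpin gene ends, with start sides as red circles, stop sides as blue squares, unplaced ends as grey triangles, and equal levels as a dashed line. The 5 ends under 20% and Serpinb5 and Serpinb6c lie near the line, and the ends at 80% or more in the controls lie between 33.5 and 61.7% in the knockouts.

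The 5 largest losses at ends were at stop sides and at ends with no known side. A start side, that of Serpina3n, came close behind them (-49.06 points). Serpina3b had the largest, at its stop side, with 91.4 and 95.8% in controls against 37.5 and 42.3% in knockouts, a difference of -53.7 points over 7 CpGs. It was followed by the stop side of Serpinb12 (-53.3 points), the low-coordinate end of Serpina6 (-51.0), the stop side of Serpina3c (-49.6) and the low-coordinate end of Serpinb1a (-49.1). Ends retained from 37.7% (Serpinb13, from 47.2 to 17.8%) to 66.6% (stop side of Serpinb6a, from 92.6 to 61.7%) of control methylation where they were called lower. The start side of Serpina3a retained 38.4%, from 62.7 and 51.6% to 24.2 and 19.7%. That end rests on 24 CpGs. The median SD of the knockouts was 3.33 points over the 87 ends against 1.99 over the 54 bodies.

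Clustered bodies lost more points than single bodies on average, and the size of that difference varied with which genes were counted. Clustered bodies had means of 80.8 and 85.7% in controls against 43.1 and 43.8% in knockouts (43 bodies), and single bodies 77.9 and 81.5% against 42.5 and 44.3% (11 bodies). The clustered mean was 3.56 points above the single mean in the controls and 0.05 points above it in the knockouts, so the difference in loss was -3.51 points (exact two-sided permutation over 4 samples, p = 0.33, the smallest possible). Without the highest and lowest 10% of genes of each class, a setting chosen after seeing the data that leaves out 1 single body at each end, it was -3.10 points. Among bodies at 80% or more in the controls it was -1.18 points (33 against 8 bodies), and between medians -0.65 points (exact permutation p = 0.67 for each). This permutation cannot give a p under 0.33 in any setting, so it cannot decide between them. The retained share was 52.2% over clustered bodies and 54.4% over single bodies. Clustered bodies also had fewer CpGs, with a median of 5.16 per kb against 9.31.

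At gene ends, clustered ends were 11.5 points above single ends in the controls and 4.70 points above them in the knockouts, a difference in loss of -6.78 points (69 against 18 ends, exact two-sided permutation, p = 0.33). Between medians it was +1.02 points. Uncalled ends were 4 of 18 among single genes and 4 of 69 among clustered genes. Among ends at 80% or more in the controls the difference was -1.08 points, and such ends retained 51.6% where clustered and 53.7% where single. With 2 samples in each group no difference between clustered and single genes could reach p under 0.05.

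The enzymes that serpins inhibit and other families of protease inhibitors were mostly lower in the knockouts as well. Of 38 autosomal protein-coding genes for serine, cysteine and complement proteases, a list that also counts F3, the cofactor tissue factor, 28 of 29 measured bodies and 57 of 69 ends were called lower, against backgrounds of 96.9 and 57.5% called lower. The exception among bodies was F12, coagulation factor XII, which was at 11.96 and 13.1% in controls against 10.4 and 9.67% in knockouts. Plg, the plasminogen gene, was at 82.6 and 88.0% against 43.7 and 43.7%, and the start side of Gzmb, the granzyme that Serpinb9 inhibits, at 89.4 and 93.4% against 49.3 and 45.4%. Of 47 other inhibitors (kazal, cystatin, tissue inhibitor of metalloproteinases and related families), 31 of 31 bodies and 57 of 72 ends were called lower. Start sides called lower were 22 of 27 for that list and 18 of 27 for the other inhibitors, beside 31 of 38 for the Serpin genes and 28.3% of all genes.

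The members nearest to the CpG minimums had methylated controls on both sides of the cut. This does not hold for every end left out. Control means of the excluded ends with values ran from 41.7% (stop side of Serpinb9g, 2 CpGs) to 97.5% (low-coordinate end of Serpinb13, 1 CpG). Just inside the 10-CpG minimum, Serpinb9f (11 CpGs) had 76.0% in controls and 44.6% in knockouts, and Serpina3c (12 CpGs) had 90.4% and 43.9%. Just outside it, Serpinb3c (9 CpGs) was at 91.0% and 44.4%, and Serpina3k (8 CpGs) at 88.1% and 49.2%. Just inside the 5-CpG minimum for ends, the stop side of Serpina3c was at 87.5% and 37.8% and the high-coordinate end of Serpina3k at 90.1% and 51.7%. Just outside it, with 4 CpGs each, the stop side of Serpina3a was at 88.2% and 52.5% and the start side of Serpina3j at 84.8% and 43.6%.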

How the data were processed

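Whole-genome bisulfite sequencing (PBAT) was measured in 2 control and 2 knockout samples of male germ cells. The deposited table gives percent methylation per listed cytosine, on both strands of CpGs, for each sample. Its coordinates are in the mm10 build, per the submitters' processing notes. Not given in the sources used here: aligner, methylation caller, handling of reads that match several places, and read depth. The table's title names a minimum of 10 reads, which could not be checked without depths. A level was the mean over cytosines with a value in all 4 samples. Genes came from a RefSeq table (GRCm38.p6), and strand and start sequences from its promoter table, which covered 53 of 62 members. Of the CpGs in that table's windows, 98.7% matched listed cytosines.

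All autosomal protein-coding bodies (15644) and ends (34728) were fitted with limma 3.58.1 (R 4.3.3; trended, robust variance) on log2((m + 0.01)/(1 - m + 0.01)), where m is the level as a fraction. Adjusted p-values are Benjamini-Hochberg over all bodies or all ends. Contrasts between clustered and single genes were tested by exact two-sided permutation over the 4 samples. The scripts were tested on simulated data. The promoter windows, clades and 10-kb windows were described without a fit. Alternatives covered the offset, the scale, the variance model, the minimums, the region limits, the cluster rule, the replicate block and leaving out each sample.

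The members and gene lists were chosen with earlier results of these data known. By rule the text names a set of well-studied members whatever their values, the 5 largest and 5 smallest body losses, the 5 lowest control bodies, the 5 largest end losses, ends under 20% in the controls, any end with a higher knockout mean, and the members nearest to the CpG minimums. The values of 1 member are not reported here. Other members are named as examples chosen after their values were seen.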

Additional observations from a re-analysis of the deposited data

How the results depend on the processing

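Counts of Serpin bodies and ends called lower stayed within 1.5 times of 54 and 79 under another offset, untransformed fractions, no minimum difference and other region limits. With each region's own spread in place of the shared variance, 35 of 87 ends were called, against 24.4% of all ends, and 44 ends lost the call. With that spread 53 of 54 bodies were called, and Serpinb6d was not (adjusted p = 0.089). With at least 10 CpGs, 48 ends were left and 41 were called, against 48.8% of all ends. Leaving out each sample in turn gave 54 bodies and 79 ends each time, with the lone sample assumed to vary like the other group. Over the same omissions the difference in loss between clustered and single genes ran from -4.15 to -2.87 points for bodies and from -7.87 to -5.69 points for ends. It reversed to 1.02 points for ends between medians and shrank to -0.65 points for bodies between medians, while the retained share of clustered genes was the lower one in every setting run. The high-coordinate end of Serping1 lost its call when ends reached only 500 bp outside the gene (-6.15 points), since that difference is under 10 points. With the replicate number as a block 54 bodies and 79 ends were called; same-numbered samples showed correlations of 0.0975 over bodies and 0.0803 over ends, with only 2 pairs, so the numbers were not taken to pair the samples. Depth is unknown, so differences of a few points at low ends cannot be set against counting error.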

Other observations

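Serpin bodies with too few CpGs for the comparisons held levels in the range of the others, given here as values. In the Serpinb3 group the body of Serpinb3a was at 83.5 and 87.8% in controls against 39.6 and 43.5% in knockouts over 4 CpGs, and that of Serpinb3b at 84.2 and 75.9% against 29.5 and 37.4% over 8 CpGs. Serpina3g was at 80.3 and 83.1% against 39.8 and 46.0% over 7 CpGs. On chromosome 13, Serpinb9g was lower in the controls, at 64.2 and 68.1% against 43.4 and 36.3% over 7 CpGs, and Serpinb9h was at 77.9 and 79.2% against 40.4 and 41.9% over 4 CpGs. The uncalled ends of other inhibitor genes were mostly low as well: the start side of Timp2, a metalloproteinase inhibitor gene, was at 2.32 and 2.68% against 2.04 and 1.93%, and that of Cst3, which encodes cystatin C, at 5.93 and 4.81% against 2.90 and 3.69%.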
